A study of Mus musculus with 6 samples.

Results

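The G1 cyclins and the CDK inhibitors that oppose them were followed as a set of 10 genes, chosen by symbol: the D-type cyclins Ccnd1, Ccnd2 and Ccnd3, the E-type cyclins Ccne1 and Ccne2, the Cip/Kip inhibitors Cdkn1a, Cdkn1b and Cdkn1c, and the INK4 inhibitors Cdkn2a and Cdkn2c. They are 10 of the 29510 gene symbols and 51 of the 85882 transcripts in the table, and all 10 genes passed the filter of a mean of at least 0.5 FPKM (fragments scaled by transcript length and library size). RNA came from mouse primary chondrocytes, the cells that make cartilage, in culture without induced differentiation. In 3 libraries (control 1 to 3) the cells were Nf2 f/f, with both copies of Nf2 flanked by loxP sites and no Cre, and in 3 libraries (cKO 1 to 3) they were Nf2 f/f;Prx1-Cre. Prx1-Cre is a recombinase driven by a promoter active in limb bud mesenchyme. Both groups carried the floxed alleles, and only the cKO cells carried Cre. No label gives an age or a sex, nor says that the replicates are separate animals or cultures. A p-value here therefore reflects only the spread between these libraries, part of which may be technical.

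D-type cyclins bind CDK4 and CDK6 and start the phosphorylation of RB, which releases E2F factors, and E-type cyclins then drive CDK2 and entry into S phase. Cip/Kip proteins (p21 from Cdkn1a, p27 from Cdkn1b, p57 from Cdkn1c) bind cyclin-CDK complexes, while INK4 proteins bind CDK4 and CDK6 alone. In the mouse growth plate, chondrocytes leave the cell cycle as they mature, and p57 is needed for that exit to proceed normally.

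Libraries differed within the groups as well as between them. Xist, the RNA that coats an inactive X chromosome, was at 51.1, 0.525 and 53.9 FPKM in control 1 to 3 against 51.4, 41.6 and 0.0288 FPKM in cKO 1 to 3, so control 2 and cKO 3 stood apart. Nf2, summed over its transcripts, was at 16.7, 16.6 and 14.1 FPKM in control against 17.5, 15.6 and 18.1 FPKM in cKO (log2 change 0.11, SE 0.091, limma adjusted p = 0.463), but -0.56 for the leading transcript alone (limma adjusted p = 0.130). That sum also takes reads outside a deleted part and does not check the deletion. All 9 chondrocyte markers were past the test and lower in cKO, with a median log2 change of -1.36, and summed to 4849 to 5964 FPKM in control against 2312 to 2842 FPKM in cKO. Of 5 tested fibroblast markers 3 were lower, and the 6 summed to 1184 to 1193 FPKM in control against 706 to 1154 FPKM in cKO. Osteoblast markers summed to 35.9 to 56.6 and 51.7 to 219 FPKM, mostly from Ibsp, whose groups overlapped. None of the tested osteoblast markers passed, and Bglap was lower on average in cKO. Smooth muscle markers summed to 126 to 179 and 191 to 257 FPKM. Macrophage markers summed to 5.05 to 15.9 and 6.24 to 9.73 FPKM. Endothelial, erythroid and neural markers were each under 0.5 FPKM on average over all libraries and were not tested. The erythroid ones summed to 0.333 to 2.03 FPKM in control against 0.0192 to 0.0658 FPKM in cKO. Skeletal muscle markers summed to 0.912 to 1.70 and 2.15 to 3.44 FPKM, nearly all from Acta1, which was called higher. Epidermal markers summed to 3.42 to 3.68 and 3.80 to 4.92 FPKM. Of these Trp63 was called higher, while Krt10 was lower without overlap and did not pass. Adipocyte markers summed to 38.3 to 42.6 and 38.1 to 65.2 FPKM. Of these Pparg was called higher (mean 9.45 in control, 21.7 FPKM in cKO), while Fabp4 overlapped and was lower on average in cKO. The part of these marker shifts in the results was not tested, and in bulk RNA fewer cells of a type cannot be told apart from less RNA per cell.

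Cdkn1c fell, Cdkn1a and Ccne1 rose, and the other 7 members did not pass the test. Called members were thus 3 of 10, where 12.2% of the 14080 tested genes were called. By direction, 2 of 10 were higher (7.6% of all genes) and 1 of 10 was lower (4.57% of all genes). The groups did not overlap for 4 of 10 members, beside 35.1% of all genes. The median log2 change was 0.13 over the members and 0.05 over all tested genes. Among all called genes 62.5% were higher, a share that was 45.5% after median-of-ratios scaling and 47.5% after quantile normalization. Without control 2 and cKO 3, a choice made after seeing the data, 0 members were called higher by limma and 1 lower. In that fit 64 of all genes were called higher and 164 lower.

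**Figure D1:**
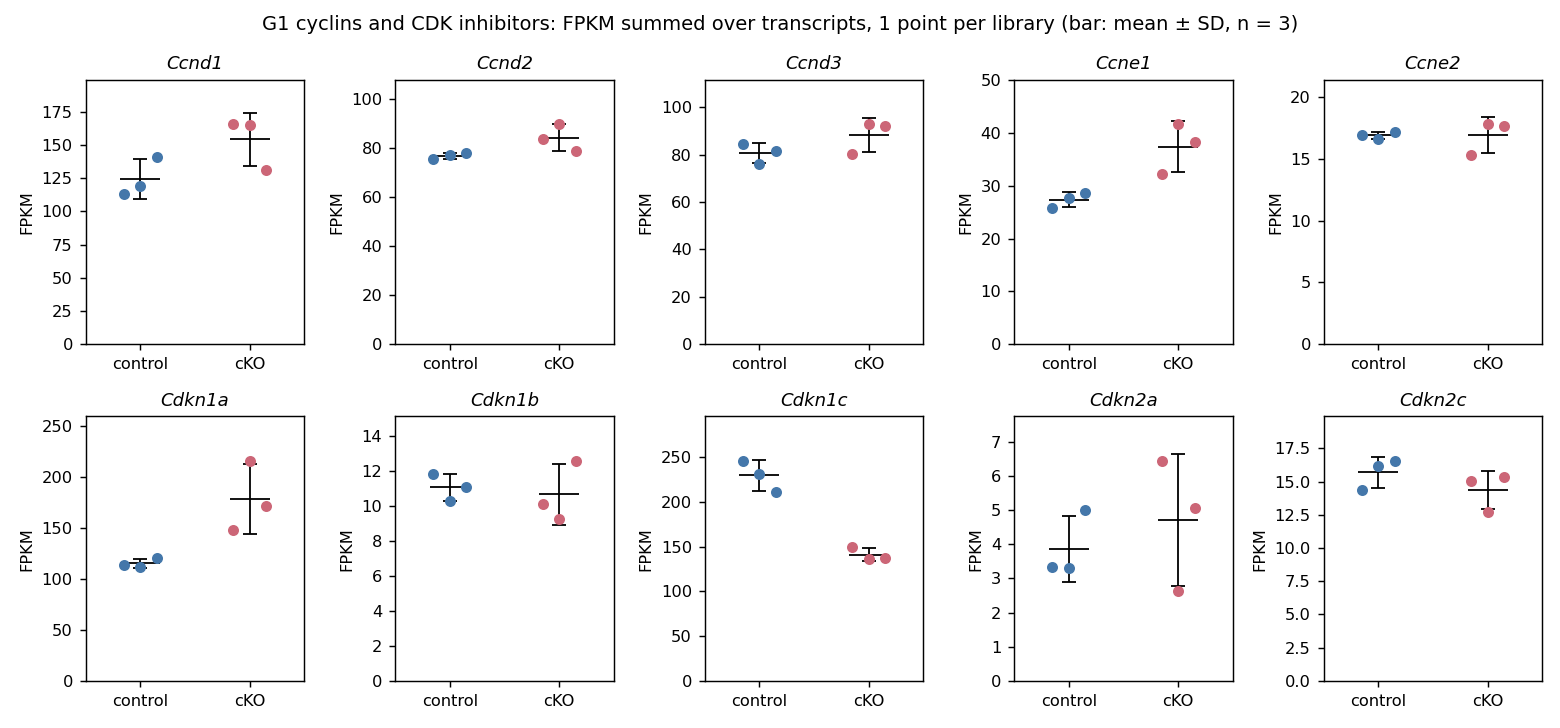
FPKM summed over the transcripts of each gene (vertical axis, from 0) for 10 G1 regulators, with 1 point per library, control in blue and cKO in red, and bars at the mean ± SD (n = 3). Points of Ccnd2, Ccne1, Cdkn1a and Cdkn1c do not overlap between groups, and Cdkn1c is the one of these that is lower in cKO.

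Among the D-type cyclins none passed the test. Ccnd1, the member best known as a target of mitogen signalling, was at 113, 119 and 141 FPKM in control 1 to 3 against 166, 165 and 131 FPKM in cKO 1 to 3. The cKO libraries 1 and 2 were above every control, while cKO 3 lay between control 2 and control 3. Its log2 change was 0.31 (95% interval 0.04 to 0.57, SE 0.12, limma adjusted p = 0.120), and of 18 alternatives it passed only in that without cKO 3, at an adjusted p of 0.0475 and a log2 change of 0.42. Ccnd2 was at 75.5, 76.9 and 78.0 FPKM in control against 83.7, 89.8 and 78.7 FPKM in cKO. Its groups did not overlap, but cKO 3 was within 1 FPKM of control 3, and the log2 change of 0.13 (SE 0.064) did not pass limma (adjusted p = 0.231). Ccnd3 was at 84.4, 76.1 and 81.4 FPKM in control against 80.1, 93.0 and 92.0 FPKM in cKO. Here the groups overlapped through cKO 1, and the log2 change was 0.13 (SE 0.077, limma adjusted p = 0.305). Together the D-type cyclins summed to 282 ± 16.3 FPKM in control against 327 ± 23.2 FPKM in cKO (SD, n = 3). Ccnd1 made up 44.0 ± 2.79% of that sum in control and 47.1 ± 3.43% in cKO.

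Of the E-type cyclins, which activate CDK2, Ccne1 rose and Ccne2 did not pass the test. Ccne1 was at 25.8, 27.7 and 28.6 FPKM in control 1 to 3 against 32.3, 41.7 and 38.3 FPKM in cKO 1 to 3. Every cKO library was above every control, with cKO 1 the nearest to them. The mean went from 27.4 ± 1.41 to 37.4 ± 4.79 FPKM (SD, n = 3), a 1.37-fold difference. The log2 change was 0.44 (95% interval 0.21 to 0.66, SE 0.097, limma adjusted p = 0.0259). The call was lost in 10 of 18 alternatives with the direction unchanged (log2 change 0.35 to 0.54). Limma adjusted p was 0.0938, 0.0879 and 0.0527 without control 1, 2 or 3, 0.0501 and 0.0682 without cKO 2 or 3, and 0.168 without both control 2 and cKO 3. It was 0.0907 without a filter on low values, 0.0534 after quantile normalization, 0.0723 for the leading transcript alone and 0.0585 without a trend in limma. Ccne2 was at 17.0, 16.6 and 17.2 FPKM in control against 15.3, 17.8 and 17.7 FPKM in cKO. Its cKO 1 lay below the controls and its cKO 2 and 3 above them (log2 change -0.0017, 95% interval -0.18 to 0.17, limma adjusted p = 0.991). Ccne1 held 61.8 ± 1.23% of E-type cyclin FPKM in control against 68.8 ± 1.14% in cKO, with all 3 cKO libraries above all controls.

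The stretch around the Ccne1 start site is shown because Ccne1 is itself a classic E2F target. It is the RefSeq window (GRCm38.p6, the assembly also called mm10) of 300 bases around the start, at chr7:38107441-38107740 on the minus strand. Capitals mark TCCCGC, a short E2F core, searched on both strands.
Ccne1 window: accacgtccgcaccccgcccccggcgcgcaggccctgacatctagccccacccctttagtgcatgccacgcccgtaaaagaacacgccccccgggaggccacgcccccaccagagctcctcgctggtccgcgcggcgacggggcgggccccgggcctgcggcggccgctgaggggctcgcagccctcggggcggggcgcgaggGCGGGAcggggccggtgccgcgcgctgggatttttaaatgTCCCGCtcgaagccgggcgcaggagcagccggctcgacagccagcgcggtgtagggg
Its matches begin at -47 and -7 from the RefSeq start site, 38107490. The leading Ccne1 transcript, ENSMUST00000108023, starts upstream of that, at 38107534. For that transcript the first match spans the start and the second lies within exon 1. Matches to TCCCGC were in 20% of all 32851 mouse windows of this length and in 3 of 10 member windows, those of Ccne1, Cdkn2a and Cdkn2c. The 10 windows belong to Ccnd3, Ccne1, Cdkn1a, Cdkn1b, Cdkn2a and Cdkn2c, and a match describes letters, not binding. Other motifs searched on both strands were the longer E2F forms TTTCCCGC, which contains TCCCGC (1 of 10 member windows, 1.07% of all), and TTTGGCGC (0 of 10, 0.514% of all), and GGAATG, which TEAD factors bind (1 of 10, 14.7% of all). The E-box CACGTG was in 1 of 10 (7.15% of all), TATAAA in 0 of 10 (13.6%), CCAAT in 4 of 10 (37.4%) and the GC box GGGCGG in 8 of 10 (35.7%).

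**Figure D2:**
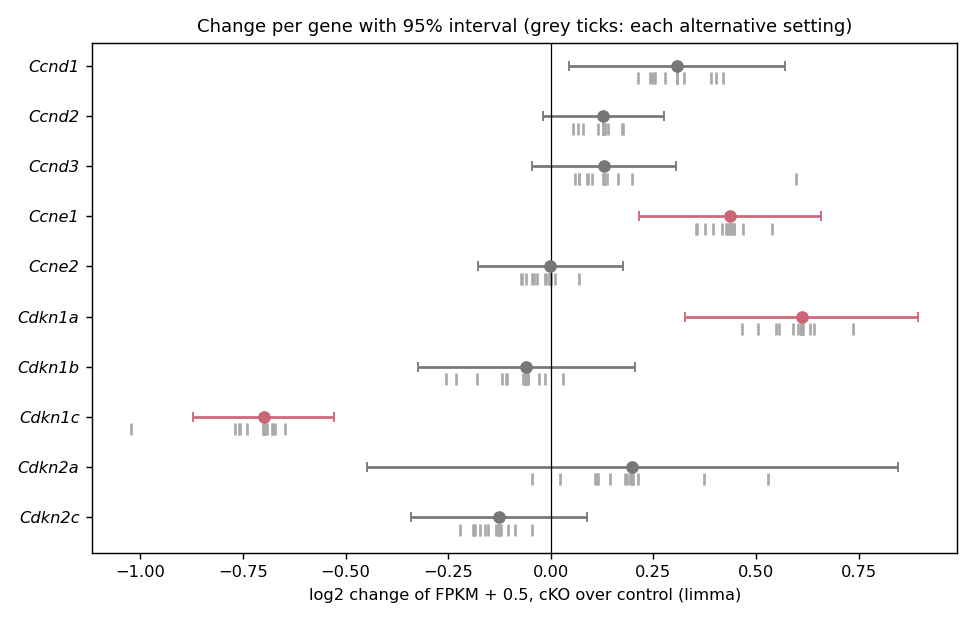
Log2 change of FPKM + 0.5, cKO over control, from limma for each member (points, horizontal axis) with its 95% interval; coloured points passed an adjusted p of 0.05, and grey ticks give the change under each alternative setting. Ticks of Cdkn1c lie between -1.02 and -0.65, and those of Ccne2, Cdkn1b and Cdkn2a fall on both sides of 0.

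Among the Cip/Kip inhibitors Cdkn1c fell, Cdkn1a rose and Cdkn1b did not pass the test. Cdkn1c, which encodes p57, was the most abundant member in control, at 246, 231 and 211 FPKM, and was at 149, 137 and 137 FPKM in cKO 1 to 3. All 3 cKO libraries were below the lowest control. The mean fell from 229.6 ± 17.6 to 141 ± 7.27 FPKM (SD, n = 3), or to 0.614 of control. The log2 change of Cdkn1c was -0.70 (95% interval -0.87 to -0.53, SE 0.075, limma adjusted p = 0.00154). It passed limma in 18 of 18 alternatives, with adjusted p between 0.00134 and 0.0458. The summed chondrocyte markers were lower in all 3 cKO libraries too, and their part in this fall was not tested.

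Cdkn1a, which encodes p21, a main effector of p53 in cell cycle arrest, rose. It was at 114, 112 and 121 FPKM in control 1 to 3 against 149, 217 and 172 FPKM in cKO 1 to 3. The controls lay close together and below every cKO library, which spread widely with cKO 2 the highest. From 116 ± 4.38 FPKM the mean went to 179 ± 34.6 FPKM (SD, n = 3), a 1.55-fold difference. The log2 change was 0.61 (95% interval 0.33 to 0.89, SE 0.12, limma adjusted p = 0.0189). The call was lost in 5 of 18 alternatives. Limma no longer called it without a filter on low values (adjusted p = 0.0867), for its leading transcript alone (0.129), without control 1 (adjusted p = 0.0673), without control 2 (0.0799), or without both control 2 and cKO 3 (0.145). Over the 18 its log2 change stayed between 0.46 and 0.74, and the part of the smooth muscle markers was not tested. Their sum was higher in all cKO libraries through Acta2 and Des, of which only Des passed the test, while Cnn1 and Myh11 overlapped between groups and were lower on average in cKO. Cdkn1b, which encodes p27, was low, at 11.8, 10.3 and 11.1 FPKM in control against 10.1, 9.29 and 12.6 FPKM in cKO. Its groups overlapped fully (log2 change -0.06, 95% interval -0.32 to 0.20, limma adjusted p = 0.777).

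Summed Cip/Kip FPKM was 356 ± 14.8 in control and 331 ± 28.4 in cKO (SD, n = 3), with overlapping groups, while its makeup differed. Cdkn1c held 66.1, 65.4 and 61.6% of the sum in control 1 to 3 against 48.5, 37.7 and 42.7% in cKO 1 to 3. The share of Cdkn1a was 30.7, 31.7 and 35.2% in control and 48.2, 59.7 and 53.4% in cKO. Neither share overlapped between groups, and Cdkn1b held 3.11 ± 0.179% and 3.26 ± 0.683%. In control the order of mean FPKM was Cdkn1c, Ccnd1, Cdkn1a, Ccnd3, Ccnd2, Ccne1, Ccne2, Cdkn2c, Cdkn1b and Cdkn2a, and the ranges of neighbours overlapped only for Ccnd1 and Cdkn1a and for Ccnd3 and Ccnd2. In cKO the first places went to Cdkn1a, Ccnd1 and Cdkn1c, whose ranges overlapped from each to the next, and those of Ccne2 and Cdkn2c now overlapped as well as those of Ccnd3 and Ccnd2.

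**Figure D3:**
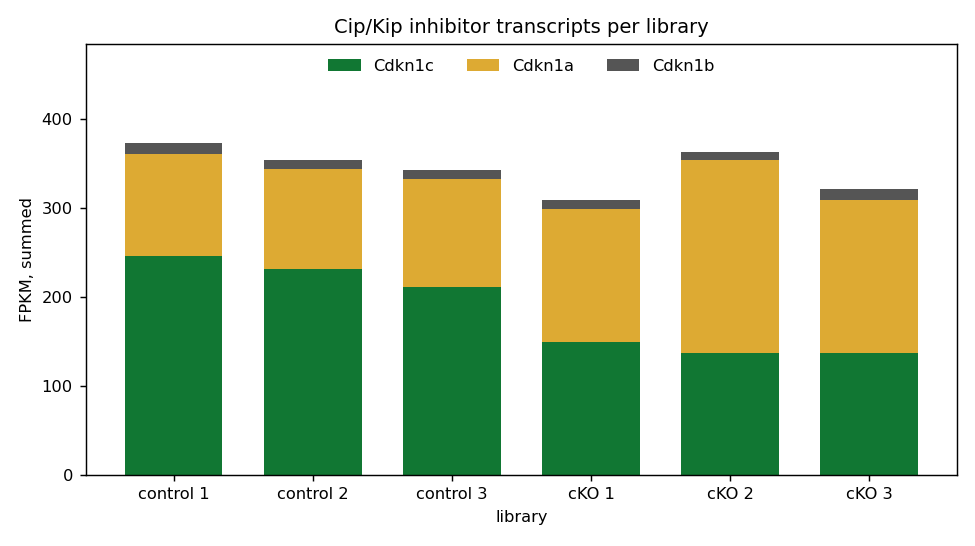
Stacked bars of FPKM (vertical axis, from 0) of Cdkn1c, Cdkn1a and Cdkn1b in each of the 6 libraries. The Cdkn1c part is between 211 and 246 FPKM in the controls and between 137 and 149 FPKM in the cKO libraries, while the Cdkn1a part goes from between 112 and 121 FPKM to between 149 and 217 FPKM.

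INK4 inhibitors did not pass the test. Cdkn2c, which encodes p18, was at 14.4, 16.1 and 16.6 FPKM in control 1 to 3 against 15.04, 12.7 and 15.3 FPKM in cKO 1 to 3. Its groups overlapped (log2 change -0.13, SE 0.093, limma adjusted p = 0.412). Cdkn2a was the lowest member, at 3.34, 3.30 and 4.99 FPKM in control against 6.45, 2.62 and 5.06 FPKM in cKO. The cKO libraries held both its highest and its lowest value, and the 95% interval of the log2 change of 0.20 ran from -0.45 to 0.84 (limma adjusted p = 0.687).

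Cdkn2a (chromosome 4, minus strand) encodes a pair of proteins, and the junctions that tell them apart are shown for that reason. ENSMUST00000060501 makes p16INK4a, and ENSMUST00000107131 makes p19ARF, which binds MDM2 and so stabilises p53. Each splices a first exon of its own to the same second exon (89276645 to 89276985). Lower case is the end of the first exon and capitals are the start of the second, read from the GENCODE M21 transcripts.
ENSMUST00000060501 junction: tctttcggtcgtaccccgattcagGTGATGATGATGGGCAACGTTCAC
ENSMUST00000107131 junction: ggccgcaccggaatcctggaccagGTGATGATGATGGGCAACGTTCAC
Exon 1 holds 126 coding bases in the first and 190 in the second, which leaves 0 and 1 bases after division by 3, so the shared capitals are read in different frames. Most Cdkn2a signal, 85.6 to 100% per library, was assigned to the p19ARF transcript ENSMUST00000107131, at 3.34, 2.94 and 4.39 FPKM in control against 5.52, 2.44 and 4.802 FPKM in cKO. The p16INK4a transcript ENSMUST00000060501 stayed under 1 FPKM in every library, with 0.317 ± 0.300 FPKM in control against 0.459 ± 0.408 FPKM in cKO (SD, n = 3), and was below the filter for a test.

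Transcript values divide reads that transcripts share, and are estimates by the authors. Of the 51 member transcripts 26 had a mean of at least 0.5 FPKM and were tested. None was called by limma, against 0.609% of all 27761 tested transcripts. With so small a share called over all transcripts, 0 of 26 does not set the members apart. The authors' deposited table marks 2 of the 51 as significant, where it marks 2.19% of all transcripts. Those are ENSMUST00000119901 of Cdkn1a, with a fold of 3.17 and q = 0.0154 in the authors' deposited table, and ENSMUST00000037287 of Cdkn1c, with a fold of 0.50 and q = 2.73e-05 there. Further transcripts of Ccne1, Cdkn1a and Cdkn1c have a q under 0.05 there but are not marked, because they change less than 2-fold. The share of all transcripts with such a q was not computed.

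The tested Cdkn1a transcripts have a main start site, an upstream one and a further one downstream, that of ENSMUST00000122348. The upstream start, that of ENSMUST00000119901, is shown because the authors' deposited table marks this transcript and because p53 targets were among the lists examined. Its RefSeq window lies at chr17:29090729-29091028 on the plus strand, and capitals mark ACATGT, the core of a half-site that p53 binds.
Cdkn1a upstream window: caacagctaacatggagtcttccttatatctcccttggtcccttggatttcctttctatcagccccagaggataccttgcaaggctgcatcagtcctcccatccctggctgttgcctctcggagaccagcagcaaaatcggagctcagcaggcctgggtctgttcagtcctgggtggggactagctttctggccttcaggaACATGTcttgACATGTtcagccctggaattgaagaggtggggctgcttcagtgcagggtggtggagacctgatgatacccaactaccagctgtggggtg
The matches begin at -49 and -39 from the start site. A pair of matches within 20 bases was in 25 of the 32851 windows (0.0761%) and in 1 of 10 windows of members. This motif was chosen after the sequence had been read. The window at the main start, that of ENSMUST00000023829 (chr17:29093519-29093818, plus strand), held no such pair.

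Cdkn1a RNA came mostly from ENSMUST00000023829, at 109, 106 and 116 FPKM in control against 126, 205 and 166 FPKM in cKO. The transcript from the upstream start shown above, ENSMUST00000119901, was at 2.71, 3.44 and 2.99 FPKM in control against 16.0, 8.71 and 4.27 FPKM in cKO. Both were higher in every cKO library than in any control, but cKO 2 was highest for the first and cKO 1 for the second. Their log2 changes were 0.56 and 1.35, with limma adjusted p of 0.237 and 0.251. The upstream transcript held 2.64 ± 0.372% of Cdkn1a FPKM in control against 5.75 ± 4.39% in cKO (exact 2-sided permutation p = 0.2, n = 3 per group). ENSMUST00000122348 was at 1.93, 2.25 and 1.78 FPKM in control against 5.43, 2.19 and 1.51 FPKM in cKO. Its groups overlapped (log2 change 0.36, limma adjusted p = 0.730).

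Of Cdkn1c (chromosome 7, minus strand), a stretch in which its leading transcripts differ is shown. These 38 bases, at chr7:143460679-143460716, are in exon 2 of ENSMUST00000167912 and not in ENSMUST00000037287, and they hold the start codon of the former, in capitals.
ENSMUST00000167912 only: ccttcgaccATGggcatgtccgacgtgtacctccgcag
The coding sequence is 1044 bases in ENSMUST00000167912 and 1005 bases in ENSMUST00000037287. These transcripts also differ in the length of exon 1 (144 and 198 bases) and of exon 4 (683 and 680 bases).

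All 3 main transcripts of Cdkn1c were lower in every cKO library than in any control. ENSMUST00000037287 was at 107, 104 and 97.4 FPKM in control against 60.8, 37.5 and 56.1 FPKM in cKO (log2 change -1.02, limma adjusted p = 0.0910). ENSMUST00000167912, with the 38 bases shown above, was at 95.6, 83.9 and 76.3 FPKM in control against 62.0, 72.4 and 53.8 FPKM in cKO (log2 change -0.44, limma adjusted p = 0.225). ENSMUST00000208137 was at 40.4, 40.2 and 34.1 FPKM in control against 24.7, 24.2 and 25.02 FPKM in cKO (log2 change -0.62, limma adjusted p = 0.0543). Of Cdkn1c FPKM, ENSMUST00000037287 held 44.9 ± 1.40% in control and 36.3 ± 7.72% in cKO, and ENSMUST00000167912 held 37.1 ± 1.51% and 44.6 ± 7.34%, without overlap in either case. Each of these differences had an exact 2-sided permutation p of 0.1, the smallest that 3 against 3 allows, and 0.45 after Benjamini-Hochberg adjustment over 18 shares. The same p values held for Cdkn2c, whose transcript ENSMUST00000097921 held 86.2 ± 1.98% in control and 80.4 ± 1.58% in cKO (exact permutation p = 0.1).

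**Figure D4:**
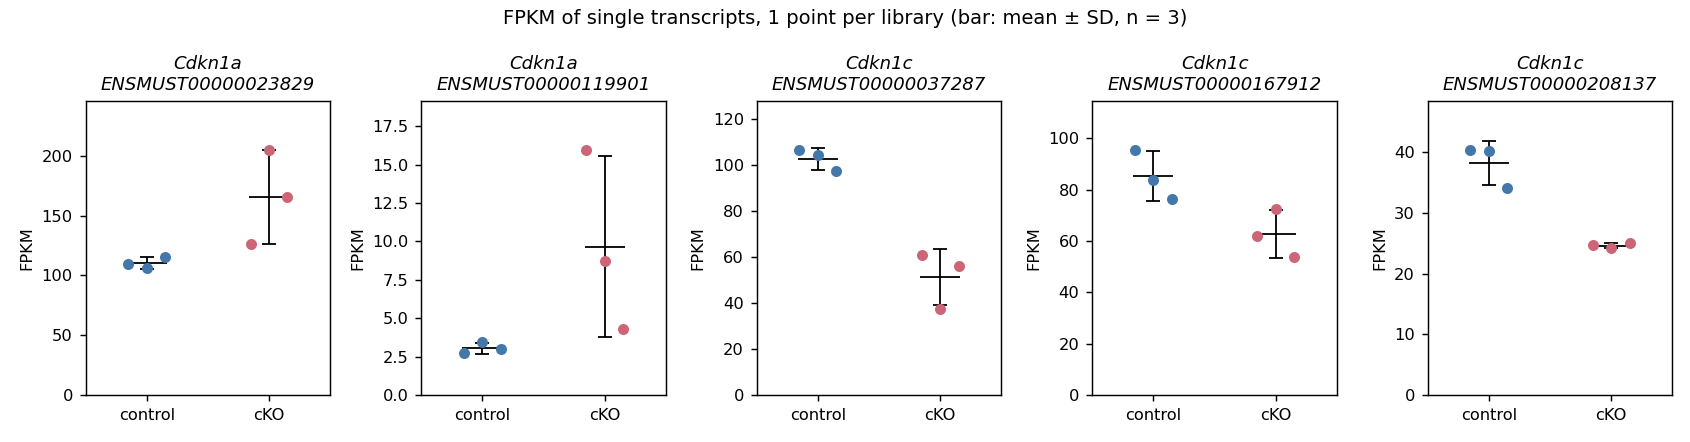
FPKM (vertical axis, from 0) of the leading transcripts of Cdkn1a and Cdkn1c, with 1 point per library and bars at the mean ± SD (n = 3). ENSMUST00000119901 of Cdkn1a is between 2.71 and 3.44 FPKM in control and between 4.27 and 16.0 FPKM in cKO, and the 3 transcripts of Cdkn1c are lower in all cKO libraries.

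Ccnd3 showed how far such estimates can vary between libraries of 1 group. Its leading transcript ENSMUST00000182209 was at 23.8 FPKM in control 1 and between 62.6 and 77.5 FPKM in the other 5 libraries. ENSMUST00000183044 was at 29.2 FPKM in control 1 and at 0.0119 FPKM or less in the others. The gene sum of control 1, 84.4 FPKM, lay within the range of the 6 libraries, 76.1 to 93.0 FPKM. Ccne2 likewise had ENSMUST00000170901 at 6.14 FPKM in control 1, 0.680 FPKM in cKO 3 and 0 in the other 4 libraries. For Ccnd1, Ccnd2 and Ccne1 1 transcript carried almost all of the signal, with ENSMUST00000093962 at 99.3 ± 0.123% of Ccnd1 in control and 99.4 ± 0.221% in cKO. In the annotation 6 members overlap a gene on the opposite strand, among them Ccne2 with Ints8, at 17.9 to 20.6 FPKM, Ccnd3 with Bysl, at 10.5 to 15.3 FPKM, and Cdkn1c with Gm44732, at 0.0596 to 0.169 FPKM. Whether the authors' values used strand is not given in the sources used here, so reads of the shared stretches cannot be told apart between the partners.

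The kinases that these proteins act on did not pass the test. Cdk4, the partner of D-type cyclins, was at 159, 155 and 168 FPKM in control against 182, 170.4 and 195 FPKM in cKO, without overlap (log2 change 0.18, SE 0.070, limma adjusted p = 0.124). That direction turned for its protein-coding transcripts (log2 change -0.36, limma adjusted p = 0.314) and for its leading transcript alone (-0.48, 0.360). Cdk2, the partner of E-type cyclins, had a log2 change that came to 0.07 (SE 0.067, limma adjusted p = 0.502), and Cdk6 one of -0.03 (SE 0.087, limma adjusted p = 0.866). Rb1, the substrate, was at 3.99 ± 0.396 FPKM in control against 3.97 ± 0.597 FPKM in cKO (SD, n = 3; limma adjusted p = 0.965). Of the 10 CDK partners and other INK4 genes limma called 0, beside 12.2% of all genes. The list had 1 call higher without cKO 2 or at a filter of 2 FPKM. The groups did not overlap for 3 of these 10 genes, beside 35.1% of all genes. Their median log2 change was 0.09, beside 0.05 over all tested genes.

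In the RB and E2F families the median log2 change was 0.08. Of their 17 genes 2 rose (11.8%, near the 12.2% of all genes called, beside 7.6% called higher). These were Tfdp1, the DNA-binding partner of E2F factors (61.5 ± 2.90 to 78.4 ± 7.65 FPKM, limma adjusted p = 0.0325), and E2f6, a repressive E2F (16.4 ± 0.600 to 20.1 ± 1.36 FPKM, limma adjusted p = 0.0382). E2f6 lost its call in 15 of 18 alternatives (limma adjusted p up to 0.188), among them the loss of any 1 of the 6 libraries. Tfdp1 lost it in 13 of 18 (up to 0.855, for the leading transcript alone), among them the loss of any library but cKO 3. The list had 0 calls after median-of-ratios scaling or quantile normalization, with the replicate number as a block, without a filter, without a trend, for the leading transcript alone, without control 1, control 2, cKO 1 or cKO 2, and without both control 2 and cKO 3. For turnover and activation of G1 regulators the median log2 change was 0.12. Of 16 tested genes (17 listed) 2 rose (12.5%, near the 12.2% of all genes called, beside 7.6% called higher). Cks1b, which helps SCF-SKP2 recognise p27, went from 62.4 ± 3.32 to 87.2 ± 5.93 FPKM, a log2 change of 0.48 (SE 0.071, limma adjusted p = 0.00600), and lost its call only without both control 2 and cKO 3 (0.0727) among 18 alternatives. Ddb1, an adaptor of CUL4 ubiquitin ligases, went from 193 ± 7.85 to 234 ± 14.98 FPKM (limma adjusted p = 0.0381) and lost its call in 12 of 18 alternatives (up to 0.155), among them the loss of any library but cKO 3.

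E2F target genes of late G1 and S phase were called in 3 of 28 cases (10.7%, beside 12.2% of all genes). All were higher, beside 7.6% of all genes called higher, and the median log2 change of the list was 0.19. Rrm2, the regulated subunit of ribonucleotide reductase, was at 142, 144 and 159 FPKM in control against 222, 282 and 275 FPKM in cKO (log2 change 0.80, SE 0.099, limma adjusted p = 0.00276). Tk1, thymidine kinase, was at 52.4, 52.3 and 52.4 FPKM in control against 70.9, 69.8 and 76.2 FPKM in cKO (log2 change 0.46, SE 0.058, limma adjusted p = 0.00294). All cKO libraries exceeded all controls for both. Tk1 kept its call in 18 of 18 alternatives, and Rrm2 in all but the one without both control 2 and cKO 3 (adjusted p = 0.0670). Rrm1, the large subunit, went from 62.3 ± 2.56 to 75.2 ± 1.87 FPKM (limma adjusted p = 0.0234) and lost its call in 8 of 18 alternatives. Its adjusted p was 0.0835, 0.104 and 0.0708 without control 1, control 2 or cKO 1, 0.131 without both control 2 and cKO 3, and 0.0524 to 0.0687 after quantile normalization, with the replicate block, for the leading transcript or without a trend. Without control 3 the count was 6, without control 2 and cKO 3 it was 1, and the groups did not overlap for 14 of the 28, beside 35.1% of all genes. Ccna2, named after its value was seen as the S-phase cyclin that follows cyclin E, was at 58.0 ± 0.924 and 61.2 ± 5.07 FPKM (limma adjusted p = 0.539).

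Among 14 mitotic cyclins and partners 6 rose (42.9%, beside 12.2% of all genes called and 7.6% called higher). In this list 0 fell, 8 did not pass and the median log2 change was 0.19. Aurka, a mitotic kinase, went from 27.6 ± 0.936 to 41.0 ± 1.80 FPKM, a log2 change of 0.56 (SE 0.062, limma adjusted p = 0.00176). Birc5, which encodes survivin, went from 62.0 ± 1.51 to 85.0 ± 7.18 FPKM (log2 change 0.45, limma adjusted p = 0.00871). Cdc20, an activator of the anaphase-promoting complex, and Plk1, a mitotic kinase, had log2 changes of 0.39 and 0.33 (limma adjusted p = 0.00986 and 0.0136), and both calls were lost without control 2 (0.0543 and 0.0637). Without both control 2 and cKO 3 the adjusted p of Birc5, Cdc20 and Plk1 was 0.0922, 0.112 and 0.113, and that of Aurka was 0.0942 for its leading transcript alone. Without control 2 the list had 2 calls, and without control 2 and cKO 3 it had 1. Mki67 and Top2a, named after their values were seen, did not pass. Their log2 changes were -0.03 and -0.06 (limma adjusted p = 0.883 and 0.565).

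Of 24 p53 target genes other than Cdkn1a 7 rose (29.2%, beside 12.2% of all genes called and 7.6% called higher). In this list 0 fell and 17 did not pass, with a median log2 change of 0.35. The groups did not overlap for 14 of the 24, beside 35.1% of all genes. Pmaip1, which encodes the death inducer NOXA, was at 1.29, 1.24 and 1.92 FPKM in control against 2.67, 5.04 and 3.32 FPKM in cKO (log2 change 1.05, SE 0.22, limma adjusted p = 0.0215). Gtse1, a G2 and S phase protein that restrains p53, went from 15.9 ± 0.431 to 21.1 ± 1.01 FPKM (limma adjusted p = 0.00923). Btg2, an antiproliferative gene, and Bax, which permeabilises mitochondria, had log2 changes of 0.48 and 0.33 (limma adjusted p = 0.0195 and 0.0253). As with Cdkn1a, cKO 2 held the highest value of Pmaip1, Gtse1 and Btg2, and cKO 3 that of Bax. The count was 1 without control 1, control 2 or cKO 3, 3 without cKO 2, 4 without control 3, 12 without cKO 1 and 0 without both control 2 and cKO 3. Pmaip1 lost its call in 6 of 18 alternatives, among them those without control 1, control 2 or cKO 3, with limma adjusted p up to 0.155. Btg2 lost it in 7, among them those without any 1 control or cKO 3 (up to 0.155), and Bax in 8, among them those without control 1, control 2, cKO 2 or cKO 3 (up to 0.165). Gtse1 lost it for its leading transcript alone (0.181) and without both control 2 and cKO 3 (0.103), and Pmaip1, Btg2 and Bax lost it under both of these and without a filter.

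Upstream of the G1 cyclins 2 of 27 tested genes (30 listed) fell (7.41%, beside 12.2% of all genes called and 4.57% called lower). In that list 0 rose and the median log2 change was 0.09. Foxo4, a FOXO factor of the family that induces Cdkn1b, was at 12.02, 9.65 and 11.0 FPKM in control against 7.39, 7.34 and 7.16 FPKM in cKO (log2 change -0.54, SE 0.091, limma adjusted p = 0.00993). Ctnnb1, which encodes the Wnt effector beta-catenin, went from 299 ± 4.05 to 242 ± 14.8 FPKM (log2 change -0.31, limma adjusted p = 0.0230). Foxo4 kept its call in 18 of 18 alternatives. Ctnnb1 lost it in 7, with adjusted p of 0.0919, 0.0920 and 0.0552 without control 1, 2 or 3, 0.112 without both control 2 and cKO 3, 0.0723 without a filter, 0.0729 for the leading transcript and 0.0564 without a trend. In the list 1 gene was called higher without cKO 1, with the replicate block or at a filter of 2 FPKM, and 2 for leading transcripts alone.

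**Figure D5:**
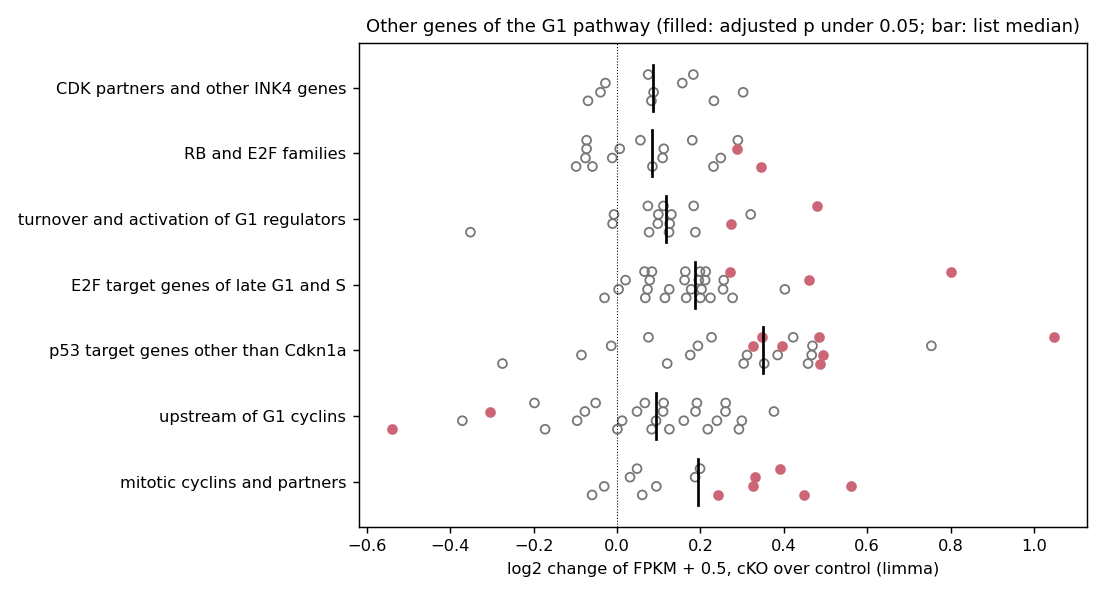
Log2 change of FPKM + 0.5, cKO over control (horizontal axis), of each tested gene in 7 lists. The lists cover G1 regulators, their upstream factors, E2F and p53 target genes, and mitotic genes. Filled points passed a limma adjusted p of 0.05, and bars mark list medians. The p53 target list has the highest median, 0.35, and the CDK partner list has no filled point.

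The genes whose pattern was most like that of a called member were found by Euclidean distance over the 6 libraries on log2 values centred per gene. For Ccne1 they were Alas1, Chrnb1 and Dsc2, at distances of 0.0705, 0.0733 and 0.0939. For Cdkn1a they were Anxa3, Pm20d1 and Gsn, at 0.119, 0.129 and 0.131. For Cdkn1c they were Col11a1, Sec16b and Dipk2a, at 0.0885, 0.120 and 0.121. Col11a1, a cartilage collagen and one of the 9 chondrocyte markers, was at 551, 531 and 466 FPKM in control 1 to 3 against 338, 290.1 and 307 FPKM in cKO 1 to 3. These genes were selected for likeness, so no test was made.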

How the data were processed

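RNA was sequenced from 3 control and 3 cKO libraries, grouped by sample title. Per the file headers, the authors' table holds FPKM, fragments scaled by transcript length and library total, for each transcript and library. The deposited fold divides the cKO mean by the control mean, and the deposited log2 value is its logarithm, which recomputation matched within 1% for 71165 of 71165 transcripts with both means above 0. The authors' p-value and q-value have no named test in the file headers, and their significant mark needs a q under 0.05 and a 2-fold change. The submitters' processing notes name mm10. The aligner, the quantifier and any use of strand were not given in the sources used here. Only 15.0 to 18.1% of low values lay within 2% of whole multiples of a fragment step, so counts were not recovered and depth is unknown; 12441 to 12697 genes reached 1 FPKM per library.

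FPKM were summed per symbol, and 14080 genes (mean 0.5 FPKM or more) were tested on log2(FPKM + 0.5), which understates changes at low levels. Limma 3.58.1 in R 4.3.3 was run with a trend of variance on mean and no covariate, 2-sided, with Benjamini-Hochberg adjustment over all tested genes at 0.05, and it was tested on simulated data. Transcripts were fitted the same way. Shares used exact permutation tests (SciPy 1.17.1). Tables and plots used Python 3.11.15, pandas 2.3.3, NumPy 2.4.6 and Matplotlib 3.10.9. Coordinates of all 51 member transcripts equal those of GENCODE M21. Members and lists were chosen with earlier results of these data known. Named were all members and a part of their transcripts, so not every transcript of at least 0.5 FPKM is described. Also named were Cdk2, Cdk4, Cdk6, Rb1, Nf2 and up to 4 called genes per list with the smallest p. The 3 genes most like each called member were named as well. Alternatives varied the pseudocount, filter, scaling, trend, transcripts summed, covariates and libraries.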

Additional observations from a re-analysis of the deposited data

How the results depend on the processing

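Among the members, Cdkn1c kept its fall in 18 of 18 alternatives (log2 change -1.02 to -0.65). The calls of Ccne1 and Cdkn1a were lost with the values 0.44 and 0.61 without a filter on low values, 0.45 and 0.56 for the leading transcript alone, and 0.43 and 0.61 without control 2 and cKO 3, a choice made after seeing the data. Ccne1 also lost it at 0.36 after quantile normalization and at 0.44 without a trend. Leaving out 1 library at a time gave log2 changes of 0.24 to 0.42 for Ccnd1, 0.35 to 0.54 for Ccne1, -0.040 to 0.068 for Ccne2 (with 0.00022 without control 1 and 0.0093 without control 3), 0.46 to 0.74 for Cdkn1a, -0.18 to 0.031 for Cdkn1b and -0.047 to 0.53 for Cdkn2a, so the sign of Ccne2, Cdkn1b and Cdkn2a was not fixed. The members called higher then numbered 0 to 2. They were 0 without a filter, for the leading transcript and without control 2 and cKO 3, and 1 after quantile normalization or without a trend, while the member called lower was 1 throughout. Over all genes, those higher numbered 225 to 782 and those lower 312 to 542 with 1 library left out, against 1070 and 643 with all. Calls higher and lower were 342 and 320 without a filter, 266 and 274 for the leading transcript, and 64 and 164 without control 2 and cKO 3. Genes higher were 652 after median-of-ratios scaling, 666 after quantile normalization and 572 without a trend. Among kinases and Rb1, Cdk2 was at -0.0026 after quantile normalization, Cdk4 at -0.36 for protein-coding transcripts and -0.48 for the leading transcript, and Cdk6 at 0.012 for the leading transcript and -0.073 to 0.035 with 1 library left out (0.0080 without cKO 3). Rb1 was at 0.0032 for protein-coding and leading transcripts, 0.054 without control 2 and cKO 3, and -0.12 to 0.053 with 1 library left out. Nf2 was at -0.56 for its leading transcript. Ccnd2, Ccnd3 and Cdkn2c kept their direction and did not pass in any of 18 alternatives, and no member transcript passed in 10. Over the 18, calls higher numbered 0 to 3 in the RB and E2F list, 0 to 2 for turnover, 1 to 6 for E2F targets, 0 to 12 for p53 targets and 1 to 6 for mitotic genes, and calls lower 1 to 2 upstream of the cyclins. In the other direction they numbered 0 to 1 for turnover and 0 to 2 upstream of the cyclins, and the CDK partners had 0 to 1 higher. The cause of these shifts was not tested. No label says whether the replicate numbers pair the samples. Same-numbered libraries deviated from their group means with correlations of -0.016, -0.056 and -0.046. Differently numbered ones had -0.046 to 0.095, and so few libraries cannot decide whether samples are paired. With the replicate number as a block, Ccne1, Cdkn1a and Cdkn1c passed limma at adjusted p of 0.0296, 0.0340 and 0.00399, and 638 genes were higher and 459 lower. Depth is unknown, so no counting error could be set beside low members such as Cdkn2a.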
